A study of Mus musculus with 12 samples.

Results

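The terminal ileum of 3 SPF PAT mice was compared with that of 3 SPF control mice, which were 6 of the 12 mice measured. All of them were male C57BL/6 mice with a specific pathogen-free (SPF) microbiota, sampled in week 7 of life. SPF PAT mice, numbered 21, 26 and 27, were exposed as pups, from P5 and for 5 days, to tylosin in the drinking water of the nursing mother, a macrolide antibiotic that blocks bacterial protein synthesis. SPF control mice, numbered 2, 7 and 8, were not exposed. The other 6 mice were germ-free (GF), raised without any microbes, with 3 in the group GF control and 3 exposed to the same course in the group GF PAT. The comparison asked whether a macrolide course during nursing left the immune gene expression of a colonized gut different weeks later. The study assigned whole litters to a treatment, and the labels give no litter, cage or batch, so the p-values measure the spread between these mice, and a litter and its treatment cannot be told apart. RNA of whole tissue was counted on the NanoString nCounter mouse immunology panel, in which color-coded probes hybridize to transcripts and are counted 1 by 1. Values were available for 556 genes, as log2 normalized counts, and a difference is always the mean of the SPF PAT mice minus the mean of the SPF control mice on this log2 scale. Total counts were 806043 to 923395 per SPF control mouse and 600308 to 671692 per SPF PAT mouse, so that the groups did not overlap before normalization. The role of this gap in the results was not tested beyond the other scalings given below. In bulk tissue, fewer cells of a type and less RNA per cell cannot be told apart.

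The ileal mucosa holds an epithelium that meets the microbiota, T cells and cytotoxic lymphocytes between and beneath the epithelial cells, and B cell follicles in the Peyer's patches. Resident bacteria are known to raise MHC class II and serum amyloid A in ileal epithelium and to increase the number of cytotoxic intraepithelial lymphocytes and of cells that make IL-17 and IL-22. Interferon gamma, made by T cells and NK cells, acts through its receptor and the JAK-STAT pathway on genes such as Irf1, by way of the gamma-activated sequence in their promoters. The IRF proteins bind another motif, the interferon-stimulated response element. The products of these genes raise antigen processing, MHC expression and the chemokines that attract T cells.

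Promoters are shown for 4 interferon response genes that were lower in SPF PAT mice and for B2m, the light chain of MHC class I, which did not pass the test. Genes of this kind are described below, and the interferon pathway list passed at 28%, near the 26.3% of all genes. Each line gives 100 bases of the RefSeq promoter in build GRCm38.p6, written 5′ to 3′ on the strand of the gene, with motif matches in capitals.
Irf1, chr11:53769878-53769977, plus strand: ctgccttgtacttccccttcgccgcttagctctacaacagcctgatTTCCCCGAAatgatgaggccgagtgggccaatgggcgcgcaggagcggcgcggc
Irgm1, chr11:48871393-48871492, minus strand: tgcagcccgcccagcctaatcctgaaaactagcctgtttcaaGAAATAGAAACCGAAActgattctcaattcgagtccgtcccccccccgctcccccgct
Socs1, chr16:10785562-10785661, minus strand: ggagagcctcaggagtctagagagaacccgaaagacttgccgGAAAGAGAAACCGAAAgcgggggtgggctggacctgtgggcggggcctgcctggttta
Cxcl10, chr5:92349040-92349139, minus strand: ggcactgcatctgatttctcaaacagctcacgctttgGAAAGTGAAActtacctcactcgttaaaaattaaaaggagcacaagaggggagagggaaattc
B2m, chr2:122147503-122147602, plus strand: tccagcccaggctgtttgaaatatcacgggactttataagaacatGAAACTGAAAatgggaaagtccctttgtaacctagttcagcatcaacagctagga
The capitals of Irf1 mark a match to the gamma-activated sequence TTCNNNGAA, whose first base lies at -90 from the annotated start. Those of the other genes mark the response element GAAANNGAAA, at -213 in Cxcl10 and -139 in B2m, and as a pair of matches that share 4 bases at -30 and -24 in Irgm1 and at -83 and -77 in Socs1. Both strands were searched from 250 bases before to 50 bases after the start, and 411 of the 556 panel genes had a promoter in the table. The response element was found in 3.44% of all 32851 promoters. Counted per gene, with a match in any of its promoters, it was found in 3.99% of all genes and in 8.03% of the panel genes. Within the lists of interferon, JAK-STAT, MHC class I, MHC class II and chemokine genes, 3 of 15 lower genes held it, and so did 10 of 48 genes that did not pass the test. The gamma-activated sequence was found in 8.3% of all promoters and, counted per gene, in 9.55% of all genes and in 15.1% of the panel genes. Within these lists it was found in 2 of 15 lower genes and in 10 of 48 genes that did not pass. For the response element the shares within these lists were 20% and 20.8%, and no higher gene of the 9 in these lists with a promoter held either motif. Over the whole panel, higher genes did hold them. The response element was found in 4 of 56 higher and 5 of 51 lower genes, and the gamma-activated sequence in 3 of 56 and 5 of 51. A match in this window describes the letters and not binding.

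Before the groups were compared, cell type markers were read in each mouse. Epithelial markers led, with a summed normalized count of 157000 to 190000 in SPF control mice and of 149000 to 230000 in SPF PAT mice. B cell and follicle markers divided the mice otherwise than the groups did. Over 8 markers (among them Ms4a1, Cd79a, Cd79b, Cr2, Pax5, Cxcr5 and Cxcl13), the mean log2 value was 8.60, 8.88 and 5.09 in SPF control mice 2, 7 and 8, and 8.55, 4.19 and 3.72 in SPF PAT mice 21, 26 and 27. Control mouse 8 was thus among the mice low in B cell RNA, and PAT mouse 21 among the mice rich in it. Over 5 T cell markers the mean was 7.59, 7.74 and 7.13 in the control mice and 7.00, 5.85 and 5.53 in the PAT mice, so the PAT mouse rich in B cell RNA lay close to the control mouse poor in it. The 5 markers of CD8 and cytotoxic lymphocytes showed another order, with 7.20, 7.27 and 7.41 in the control mice and 5.96, 5.54 and 5.17 in the PAT mice, a gap of more than 1 log2 unit between the groups. Endothelial markers lay between 7.71 and 7.95 in all 6 mice.

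**Figure D1:**
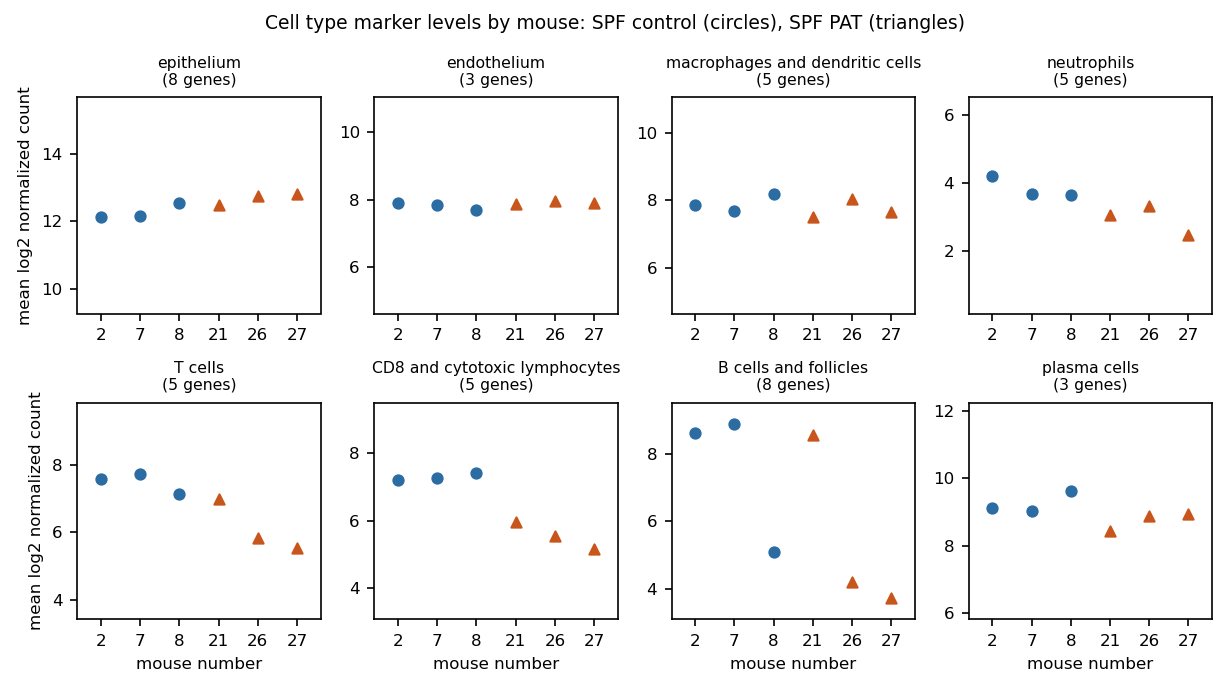
Mean log2 normalized count of the marker genes of 8 cell types (y axis, each panel spanning the same log2 range) in each of the 6 mice (x axis, mouse number), with SPF control mice as circles and SPF PAT mice as triangles. B cell and follicle markers separate mice 2, 7 and 21 from mice 8, 26 and 27, whereas CD8 and cytotoxic markers are lower in each SPF PAT mouse than in each control mouse.

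Of the 556 genes, 146 (26.3%) passed the limma test at an adjusted p of 0.05, with 78 higher (14%) and 68 lower (12.2%) in SPF PAT mice. The rises were smaller than the falls: the median difference was 0.65 among the higher genes and -1.28 among the lower genes, and a difference of 1 log2 unit or more was reached by 9 higher and 46 lower genes. Higher genes made up 53.4% of the calls on the deposited scale, 71.7% after each mouse was centred on its median, 64.7% after quantile normalization and 70.3% after scaling to the total. Median centring moved the median difference of all genes from -0.02 to 0.34, and the differences below are relative to the deposited scale. In 228 genes (41%) the 3 PAT mice did not overlap the 3 control mice, among them 143 of the 146 that passed, and with 3 mice a side the exact permutation test of a single gene cannot go below p = 0.1. Leaving out any 1 of the 6 SPF mice kept the call of 60 genes, 28 higher and 32 lower. With the B cell and follicle marker mean as a covariate, 143 genes passed, of which 121 were among the 146. Mice 8 and 21 were then left out, chosen for B cell markers that went with the other group. Without them the count was 306, of which 135 were among the 146.

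The fall of serum amyloid A exceeded every other difference on the panel. Saa1_2, a probe for the acute phase proteins SAA1 and SAA2 that does not tell the paralogs apart, had log2 normalized counts of 14.54, 13.57 and 14.75 in SPF control mice 2, 7 and 8. In SPF PAT mice 21, 26 and 27 it read 8.16, 10.35 and 8.98. The difference was -5.12 ± 0.51 (SE, n = 3 per group; adjusted p = 0.000541), which is 34.9-fold lower. Saa3, of the same family, was 2.71-fold lower (-1.44 ± 0.36, adjusted p = 0.0178), but its call ended without control mouse 2 or PAT mouse 27 (adjusted p up to 0.0685), after median centring (adjusted p = 0.0612) and after quantile normalization (adjusted p = 0.0756). Other epithelial defence genes fell as well. Nos2, the inducible nitric oxide synthase, read 9.58, 9.80 and 10.56 in control mice and 7.56, 8.69 and 8.46 in PAT mice, and Nox1, an epithelial NADPH oxidase, 8.13, 8.07 and 8.39 against 5.67, 6.79 and 6.95. Both groups stood apart, with differences of -1.75 ± 0.33 for Nos2 and -1.73 ± 0.35 for Nox1 (adjusted p = 0.00545 and 0.00829, and 0.0517 for Nox1 after median centring). Of the 15 epithelial defence genes, 5 fell and 3 rose, and 3 fell without mouse 2 and 2 rose without mouse 2, 7, 26 or 27. The median of this list was -0.16, and it turned to 0.20 with median centring and to 0.09 with quantile normalization. Ccl25, the epithelial chemokine of the small intestine that draws gut-homing T cells, was among those that rose (0.79 ± 0.14, adjusted p = 0.00445), as was Btnl1, a butyrophilin-like molecule of enterocytes that sustains gamma delta intraepithelial T cells (0.78 ± 0.17, adjusted p = 0.01). The call of Btnl1 ended when the 6 SPF mice were fitted alone and with the methods' Tukey HSD and Benjamini-Hochberg adjustment. Pigr, the receptor that carries IgA across the epithelium, differed by -0.59 ± 0.24 and did not pass (adjusted p = 0.0896).

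**Figure D2:**
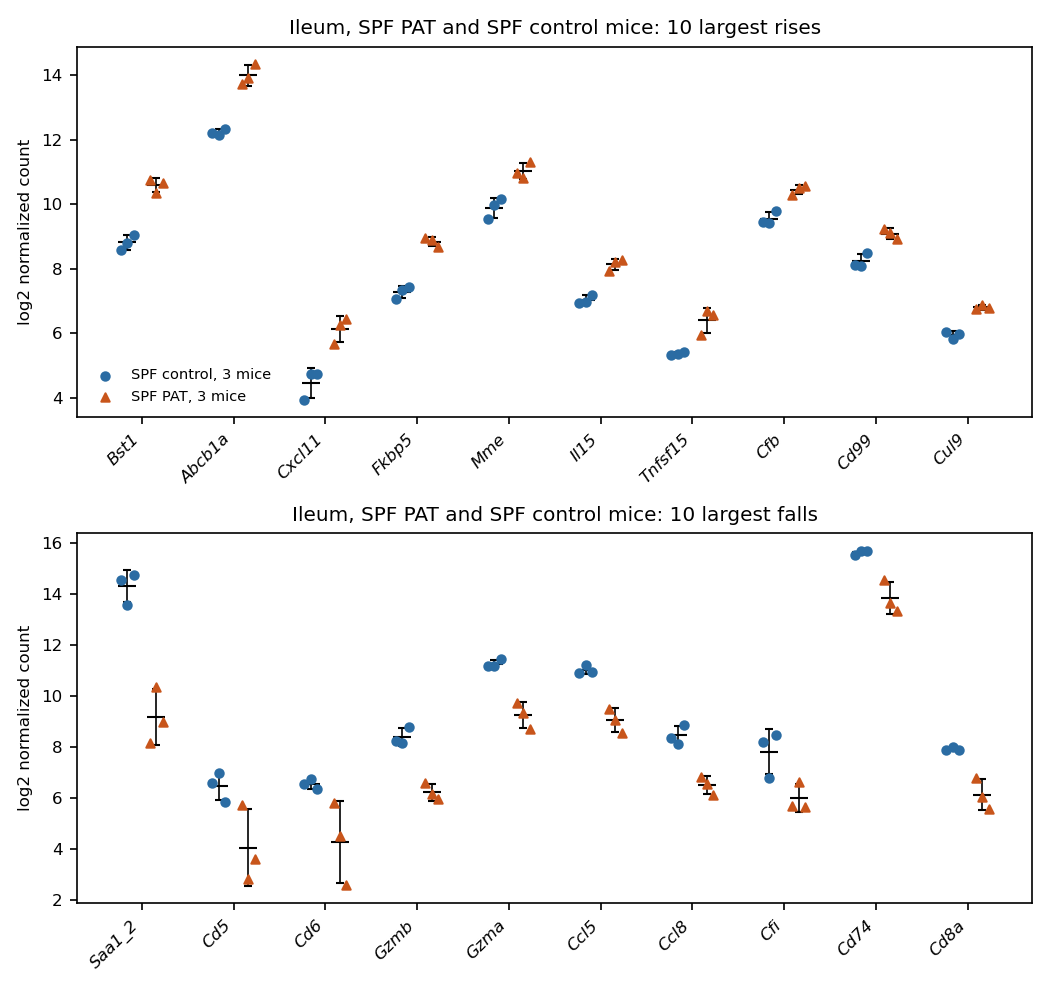
Log2 normalized counts (y axis) of 10 genes that rose most and 10 that fell most (x axis) among genes that passed the test, did not overlap between groups and had a mean normalized count of at least 20, with 1 point per mouse and bars for the mean and SD of 3 mice. Saa1_2 shows the widest gap, and in Cd5, Cd6 and Cfi the mice of a group are spread widely.

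Cytotoxic effector genes were lower in each SPF PAT mouse than in any SPF control mouse. Gzmb, the protease granzyme B, read 8.22, 8.15 and 8.78 in control mice and 6.58, 6.15 and 5.94 in PAT mice (-2.16 ± 0.25, 4.47-fold lower, adjusted p = 0.00082). Gzma, granzyme A, read 11.17, 11.17 and 11.44 against 9.73, 9.33 and 8.69 (-2.01 ± 0.36, adjusted p = 0.00475). Prf1, perforin, which opens the target cell membrane, fell by 1.48 ± 0.37 (adjusted p = 0.019), and its call ended without control mouse 2 or PAT mouse 27 (adjusted p up to 0.0706), and after quantile normalization (adjusted p = 0.118). Fasl, the ligand of the death receptor Fas, fell by 0.96 ± 0.24 (adjusted p = 0.0182), a call that ended without mouse 7 or mouse 26 (adjusted p up to 0.059), after median centring (adjusted p = 0.133) and after quantile normalization (adjusted p = 0.434). Of 26 cytotoxic and NK receptor genes, 8 fell and 1 rose (34.6%, against 26.3% of all genes). The list median of -0.41 shrank to -0.06 with median centring. Leaving out 1 mouse took the number that fell to 3 without mouse 27, 7 or 2, 4 without mouse 26, 5 without mouse 8 and 11 without mouse 21. Ifng itself, with a mean normalized count of 7.41 in control and 6.88 in PAT mice, differed by -0.12 ± 0.46 and did not pass (adjusted p = 0.839), at a level where counting error is large.

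Among T cell receptor genes, Cd8a, the co-receptor for MHC class I, read 7.87, 8.01 and 7.87 in control mice and 6.78, 6.05 and 5.55 in PAT mice (-1.79 ± 0.34, adjusted p = 0.00545). Cd4, the co-receptor for MHC class II, read 7.48, 7.59 and 7.33 against 7.38, 6.37 and 6.53, and did not pass (-0.71 ± 0.31, adjusted p = 0.11). Cd7, a surface protein of T and NK cells, fell by 1.44 ± 0.22 (adjusted p = 0.00242). Of the 24 genes of the receptor complex and its signalling, 8 fell, with Cd3d, Cd3e, Cd247 and Zap70, the receptor chains and their kinase, among them, and 1 rose, the adaptor Lcp2 (0.48 ± 0.12, adjusted p = 0.0169, a call that ended without mouse 2, 7 or 27, with adjusted p up to 0.0639). In this list 37.5% passed, against 26.3% of all genes. The list median was -1.19 and stayed negative under each scaling tried, at -0.84 after median centring, -0.83 after quantile normalization and -1.16 after scaling to the total. With the B cell and follicle marker mean as a covariate, chosen after seeing the data, the list median was -0.41. In that fit 8 members were lower, with Cd6 lost (adjusted p = 0.0672) and Lck, the kinase that starts receptor signalling, gained. The marker mean itself differed in part between the groups, and the cause of the smaller median was not tested. The fall of Cd3e was -1.40 ± 0.42 (adjusted p = 0.0358) and -0.89 with the covariate (adjusted p = 0.0143), that of Cd8a -1.42 with it (adjusted p = 0.00269). Cd5 and Cd6, scavenger receptors on T cells that dampen receptor signalling, fell by 2.43 ± 0.70 and 2.26 ± 0.71 (adjusted p = 0.0318 and 0.0425). The call of Cd5 ended without mouse 2, 7, 26 or 27 (adjusted p up to 0.11) and that of Cd6 also without mouse 8 (up to 0.12). The calls of Cd3e, Cd3d, Cd247 and Zap70 ended as well, each of them without mouse 2, 7 or 27 among others (adjusted p up to 0.136, 0.16, 0.164 and 0.0574), and median centring ended those of Cd3d and Cd247 (adjusted p = 0.0517 and 0.0547). Across the list, the number that fell was 2 without mouse 27, 7 or 2, 3 without mouse 26, 5 without mouse 8 and 15 without mouse 21.

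Of 10 genes of MHC class II presentation 5 fell and 5 did not pass the test. Cd74, the invariant chain that guides class II molecules, read 15.53, 15.67 and 15.68 in control mice and 14.54, 13.62 and 13.34 in PAT mice (-1.79 ± 0.32, adjusted p = 0.005), a call that quantile normalization ended (adjusted p = 0.112). H2-Aa, a class II alpha chain, read 14.74, 15.04 and 15.04 against 13.77, 13.08 and 12.92 (-1.68 ± 0.27, adjusted p = 0.00317). The groups were apart in both genes, and in both PAT mouse 21, rich in B cell RNA, was the highest of the PAT mice. H2-Ab1, the beta chain, fell by 1.62 ± 0.29 and H2-DMa, which loads peptides, by 1.64 ± 0.33 (adjusted p = 0.00513 and 0.00829). H2-Eb1, another beta chain, was the fifth gene that fell (-1.29 ± 0.27, adjusted p = 0.00833), and 5 or 6 genes of the list were lower when any 1 SPF mouse was left out. H2-Ea-ps and Ctss, a protease that degrades the invariant chain, lay above 0 and did not pass (0.52 ± 0.33 and 0.38 ± 0.13, adjusted p = 0.25 and 0.0543). The list median of -1.51 was -1.0 with the B cell and follicle covariate, with 6 members then lower. Ciita, the transactivator that drives the class II genes, read 9.63, 9.84 and 8.95 in control mice and 9.0, 7.38 and 6.85 in PAT mice, so that PAT mouse 21 overlapped the control mice and the gene did not pass (-1.73 ± 0.60, adjusted p = 0.0584). With the covariate its difference was -0.96 and passed (adjusted p = 0.0188).

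Of 15 genes of MHC class I presentation 2 fell (13.3%, against 26.3% of all genes that passed) and 9 lay above 0 without passing. Tap1, the peptide transporter, read 10.47, 10.68 and 10.82 in control mice and 9.49, 9.09 and 8.96 in PAT mice (-1.47 ± 0.20, adjusted p = 0.00176). Psmb9, an immunoproteasome subunit, fell by 1.27 ± 0.16 (adjusted p = 0.00109). Both genes passed when any 1 SPF mouse was left out and under each scaling. The transporter partner Tapbp and the proteasome subunits Psmb5, Psmb7, Psmb10, Psmc2 and Psmd7 did not pass. B2m read 15.63, 15.76 and 15.97 against 15.70, 15.59 and 15.71 (-0.12 ± 0.12, adjusted p = 0.429), and H2-K1, a class I heavy chain, differed by -0.07 ± 0.17 (adjusted p = 0.756).

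Of 25 interferon pathway genes 4 fell and 3 rose (28%, near the 26.3% of all genes). Ifngr1 and Ifngr2, the chains of the interferon gamma receptor, rose by 0.75 ± 0.16 and 0.69 ± 0.14 (adjusted p = 0.00833 and 0.00752). Irf1, whose promoter with its gamma-activated sequence is printed above, read 12.51, 12.57 and 12.73 in control mice and 11.68, 11.88 and 11.96 in PAT mice (-0.76 ± 0.13, adjusted p = 0.00445). It was lower in every PAT mouse than in every control mouse. Irf8, a transcription factor of myeloid and lymphoid cells, fell by 0.58 ± 0.10 and Irgm1, a GTPase of defence within cells, by 0.90 ± 0.14 (adjusted p = 0.00428 and 0.0028). Tmem173, which encodes the DNA sensor adaptor STING, fell by 0.75 ± 0.13 (adjusted p = 0.00428, and 0.078 after quantile normalization). Socs1, an inhibitor of JAK-STAT signalling that is counted in the JAK-STAT list, fell by 1.08 ± 0.20 (adjusted p = 0.00545). Median centring, which shifted the differences upward, left Irf1, Irf8, Irgm1, Tmem173 and Socs1 lower without passing (adjusted p = 0.244, 0.427, 0.0965, 0.112 and 0.0722). The median of the interferon list was 0.16. In this list 2 genes rose without mouse 2, 7, 26 or 27, 5 without mouse 21 and 6 without mouse 8, and 4 fell in each of these fits. Cd274, which encodes the inhibitory ligand PD-L1, read 7.46, 7.67 and 7.25 in control mice and 6.35, 5.70 and 5.76 in PAT mice (-1.52 ± 0.18, adjusted p = 0.00082).

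**Figure D3:**
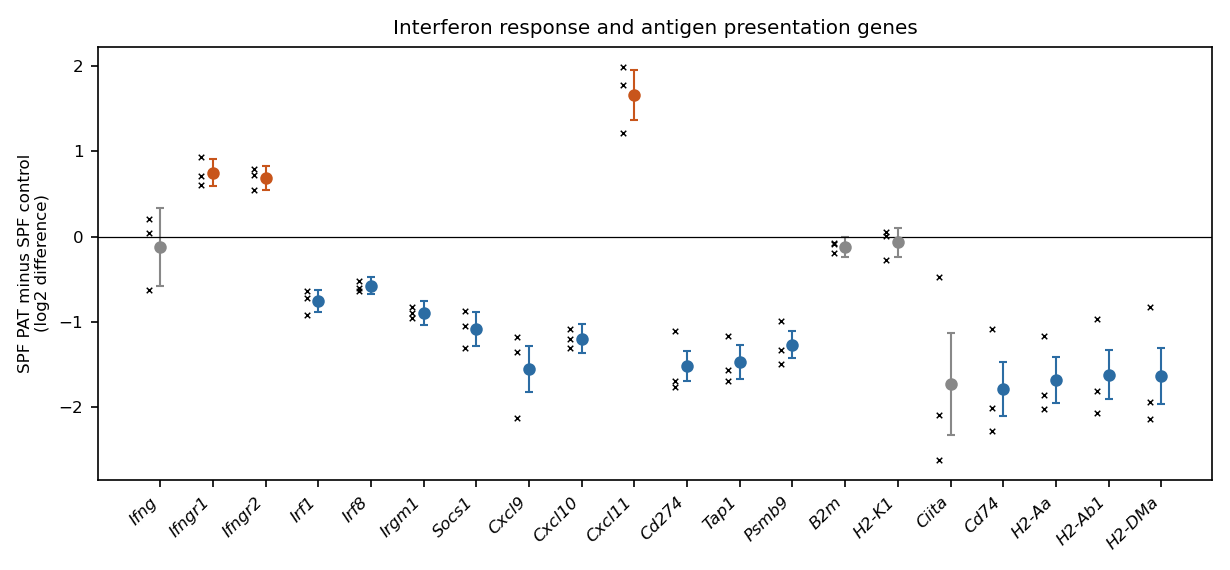
Difference SPF PAT minus SPF control (y axis, log2) of interferon response and antigen presentation genes (x axis), with filled circles and bars for the fitted difference and its SE, orange where higher, blue where lower and gray where the test was not passed, and crosses for the 3 SPF PAT mice relative to the control mean. The receptor chains Ifngr1 and Ifngr2 and Cxcl11 lie above 0, B2m and H2-K1 lie near 0, and Irf1, Tap1, Psmb9 and the class II genes lie below 0.

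The RNAs of the interferon-induced chemokine genes did not move as 1 group, and their proteins were not measured here. Cxcl10 read 6.71, 6.76 and 6.97 in control mice and 5.61, 5.73 and 5.51 in PAT mice (-1.20 ± 0.17, adjusted p = 0.00179, and 0.0595 after quantile normalization). Cxcl9 fell by 1.56 ± 0.27 (adjusted p = 0.00468). Cxcl11 rose, from 3.92, 4.72 and 4.73 in control mice to 5.67, 6.24 and 6.45 in PAT mice (1.66 ± 0.29, adjusted p = 0.00456). Ccl5, made by T and NK cells, fell from 10.89, 11.19 and 10.93 to 9.50, 9.07 and 8.55 (-1.97 ± 0.29, adjusted p = 0.00242), and Ccl8, a monocyte attractant, fell by 1.96 ± 0.27 (adjusted p = 0.00179). Of 27 chemokines 7 fell and 5 rose, with 4 lower without mouse 2 or 7 and 2 or 3 higher without mouse 2, 7, 26 or 27. This list had a median of -0.32 that turned to 0.04 with median centring and 0.07 with quantile normalization. Among 21 chemokine receptors, Ccr9, the receptor for CCL25, and Cxcr6 passed, each lower (-1.03 ± 0.20 and -0.88 ± 0.21, adjusted p = 0.00703 and 0.0142). They made up 9.52% of this list, against 26.3% of all genes that passed. Median centring left both short of the threshold (adjusted p = 0.0641 and 0.11), as quantile normalization did Cxcr6 (adjusted p = 0.12). Ccl25 rose while its receptor fell, and the groups did not overlap in either.

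Among the cytokines, Il15, which maintains cytotoxic lymphocytes and NK cells, rose from 6.93, 6.95 and 7.19 in control mice to 7.93, 8.21 and 8.26 in PAT mice (1.11 ± 0.13, adjusted p = 0.00082). Its rise ran against the falls of Gzmb and Cd8a in the same mice. Il22, a cytokine that acts on the epithelium, had a mean normalized count of 9.33 in control and 2.53 in PAT mice (-1.87 ± 0.41, adjusted p = 0.0102, a call that ended on the scale of log2 of the normalized count plus 1), and Il17a, which attracts neutrophils, of 20 and 7.75 (-1.38 ± 0.36, adjusted p = 0.0217). The call of Il17a ended without mouse 2, 7, 26 or 27 (adjusted p up to 0.0649) and after median centring or quantile normalization (adjusted p = 0.057 and 0.133). Of 18 type 17 genes, 4 fell and 2 rose (33.3%, against 26.3% of all genes). Among the latter was Il17rb, a receptor for IL-25 (0.60 ± 0.15, adjusted p = 0.0169, a call that ended without mouse 2, 7 or 26, with adjusted p up to 0.0656). The type 17 list median of -0.17 turned to 0.19 with median centring and 0.13 with quantile normalization. In that list 1 gene fell without mouse 2, 7, 26 or 27 and 6 without mouse 21. Of 33 interleukins, 22 had a mean normalized count under 20. Il10 and Il6, at such counts, differed by -0.06 ± 0.38 and 0.07 ± 0.71, and Tnf by -1.07 ± 0.59 (adjusted p = 0.907, 0.949 and 0.197). Tnfsf15, whose product TL1A co-stimulates T cells, rose from 5.33, 5.35 and 5.41 to 5.93, 6.67 and 6.57 (1.03 ± 0.19, adjusted p = 0.00513), and Lif, of the IL-6 family, by 0.81 ± 0.18 (adjusted p = 0.0102). Of 31 interleukin receptors 19.4% passed, against 26.3% of all genes. In this list 4 rose, with Il10rb, a chain shared by the receptors for IL-10 and IL-22, among them (0.62 ± 0.14, adjusted p = 0.0105), and 2 fell, with Il18rap, a chain of the IL-18 receptor, among them (-1.20 ± 0.26, adjusted p = 0.01, and 0.0791 after median centring and 0.211 after quantile normalization). Without mouse 2, 7 or 26 a single receptor rose, without mouse 27 it was 2, and 7 fell without mouse 21.

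In innate defence, S100a8 and S100a9, which form the neutrophil protein calprotectin, fell from mean normalized counts of 25.9 and 35.6 to 6.32 and 10.7 (-2.04 ± 0.52 and -1.67 ± 0.42, both adjusted p = 0.019). Both calls ended without control mouse 2 or PAT mouse 27 (adjusted p up to 0.0758 and 0.0729), after median centring (adjusted p = 0.0595 and 0.0558) and after quantile normalization (adjusted p = 0.0674 and 0.136). They were the 2 of 9 neutrophil genes that passed (22.2%, against 26.3% of all genes). Cfb, factor B of the alternative complement pathway, rose from 9.43, 9.42 and 9.77 to 10.28, 10.49 and 10.56 (0.90 ± 0.14, adjusted p = 0.0026). Cfi, the protease that inactivates C3b, fell by 1.83 ± 0.46 (adjusted p = 0.0186), but control mouse 7, at 6.80, lay close to PAT mouse 26, at 6.61, and the call ended without mouse 2 or mouse 27 (adjusted p up to 0.0729), without mice 8 and 21 together (adjusted p = 0.0653), after median centring (adjusted p = 0.0601) and after quantile normalization (adjusted p = 0.0589). Mbl2, a lectin that starts the lectin pathway, was the third complement gene of 31 that passed (9.68%, against 26.3% of all genes). Mbl2 had mean normalized counts of 16.8 and 3.78 (-2.30 ± 0.62, adjusted p = 0.0243, and 0.0515 with the B cell and follicle covariate). Its call held only without mouse 21 among the SPF mice left out 1 at a time (adjusted p up to 0.0936). Among 21 genes of Toll-like and NOD-like receptors 23.8% passed, against 26.3% of all genes. The flagellin receptor Tlr5 (0.71 ± 0.18, adjusted p = 0.019) and the inhibitor Sigirr (0.74 ± 0.14, adjusted p = 0.00545) rose with Tollip, an adaptor that limits this signalling (0.60 ± 0.19, adjusted p = 0.0447). The call of Tollip ended without mouse 2, 7, 26 or 27 (adjusted p up to 0.162) and after median centring (adjusted p = 0.0547). The lipoprotein receptors Tlr1 and Tlr2 fell by 0.82 ± 0.21 and 0.83 ± 0.26 (adjusted p = 0.0217 and 0.0402). Without mouse 2 the calls of Tlr5, Tlr1 and Tlr2 ended (adjusted p up to 0.0769, 0.0902 and 0.136 over the mice left out), as they did without mouse 26 for Tlr5, mice 7, 26 or 27 for Tlr1 and mice 8, 21 or 27 for Tlr2. Median centring ended the calls of Tlr1 and Tlr2 (adjusted p = 0.0733 and 0.285), and quantile normalization that of Tlr2 (adjusted p = 0.456). Myd88, the adaptor of most of these receptors, and Nod2, a sensor of bacterial cell walls, differed by 0.30 ± 0.13 and -0.58 ± 0.27 and did not pass (adjusted p = 0.115 and 0.13).

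Of 22 NF-kB and MAPK genes 10 rose and 1 fell, with a median of 0.40 against -0.02 over all genes. Relb, an NF-kB subunit, read 10.96, 11.17 and 11.36 in control mice and 11.94, 11.86 and 12.13 in PAT mice (0.81 ± 0.14, adjusted p = 0.00456). Nfkb1, which encodes another subunit, rose by 0.41 ± 0.10 (adjusted p = 0.019), a call that ended without mouse 2, 7 or 27 (adjusted p up to 0.0768). The exception was Nfkbiz, an inducible regulator of NF-kB targets, which fell by 0.83 ± 0.15 (adjusted p = 0.00545, and 0.23 after median centring). In this list 2 genes rose without mouse 7, 3 without mouse 2 or 27, 5 without mouse 26, 10 without mouse 8 and 12 without mouse 21. Of 9 TGF-beta pathway genes 5 rose, and the rises included the receptor Tgfbr1, the signal transducers Smad3 (0.76 ± 0.15, adjusted p = 0.00829) and Smad5 (0.72 ± 0.14, adjusted p = 0.00598) and Ski, a repressor of SMAD transcription (0.77 ± 0.13, adjusted p = 0.00383). The ligand gene Tgfb1 differed by -0.39 ± 0.20 and did not pass (adjusted p = 0.165). The number of TGF-beta genes that rose was 3 without mouse 27, 26, 7 or 2, 5 without mouse 8 and 7 without mouse 21. The call of Tgfbr1 ended without mouse 2, 7, 26 or 27 (adjusted p up to 0.119) and after median centring (adjusted p = 0.0549). In the JAK-STAT list of 16 genes, 3 rose, namely Jak2, Tyk2 and Stat6, and 2 fell, with Socs1 among them (31.2%, against 26.3% of all genes). Stat3 differed by 0.10 ± 0.13 and did not pass (adjusted p = 0.567). The rises of this list numbered at most 1 without mouse 2, 7, 26 or 27, 5 without mouse 8 and 6 without mouse 21. With the 6 SPF mice fitted alone, the rises numbered 2 in the NF-kB list, 2 in the TGF-beta list and 0 in the JAK-STAT list. With the methods' Tukey HSD and Benjamini-Hochberg adjustment they numbered 4, 3 and 1. The median of the NF-kB, TGF-beta and JAK-STAT lists was above 0 under each scaling. However, the median of all genes rose too, from -0.02 to 0.34 with median centring, 0.14 with quantile normalization and 0.0 with scaling to the total. Lists already above 0 were thus likely to stay above it. With quantile normalization the 3 list medians were 0.31, 0.75 and 0.25, against 0.14 over all genes.

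Enzymes and transporters held several of the largest rises. Abcb1a, which encodes the efflux pump P-glycoprotein, read 12.20, 12.15 and 12.34 in control mice and 13.72, 13.91 and 14.35 in PAT mice (1.76 ± 0.19, 3.4-fold higher, adjusted p = 0.000765). Bst1, an ectoenzyme known as CD157, read 8.59, 8.80 and 9.04 against 10.76, 10.35 and 10.65 (1.77 ± 0.26, adjusted p = 0.00242). Fkbp5, a co-chaperone induced by glucocorticoids, read 7.06, 7.33 and 7.44 against 8.95, 8.88 and 8.67 (1.56 ± 0.15, adjusted p = 0.000541). In each of these genes the PAT mice lay more than 1 log2 unit above the control mice. The brush border peptidases Mme and Dpp4 rose by 1.14 ± 0.21 and 0.70 ± 0.16 (adjusted p = 0.00543 and 0.0112, and 0.0512 for Dpp4 without mouse 2). Of the 13 genes of this list 7 rose and 1 fell, with a median of 0.66, and 5 to 8 rose when any 1 SPF mouse was left out. Of 8 epithelial markers, 4 rose, namely Mme, Dpp4, Ccl25 and Btnl1, and Pigr, Itln1, Muc1 and Ceacam1 did not pass. The part of tissue makeup in these rises was not tested. Cd99, a surface molecule of leukocytes and endothelium, rose by 0.86 ± 0.15 and Cul9, a scaffold of a ubiquitin ligase, by 0.86 ± 0.12 (adjusted p = 0.00445 and 0.00176).

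B cell genes had the most negative list median, -1.55 over 19 genes, yet 3 of them passed the test (15.8%, against 26.3% of all genes). Without mouse 2, 7 or 26 a single gene was lower and without mouse 21 it was 7, and the median was -0.95 without mouse 27 and -2.56 without mouse 21. Without both mouse 8 and mouse 21, 16 genes were lower. These mice were left out because their B cell and follicle markers went with the other group, so a larger fall here was built in. Ms4a1, which encodes the surface protein CD20 of mature B cells, differed by -2.43 ± 1.89 (adjusted p = 0.336), since 1 mouse of each group went with the other group. With the marker mean as a covariate the list median was -0.07. The genes that passed were Irf4, Prdm1 and Blnk, all lower, and none passed with the methods' Tukey HSD and Benjamini-Hochberg adjustment. Summed normalized counts of 3 plasma cell markers overlapped, at 5580 to 8590 in control mice and 5900 to 7810 in PAT mice. Their mean log2 values did not overlap. They were 9.13, 9.03 and 9.63 in control mice 2, 7 and 8, and 8.43, 8.89 and 8.94 in PAT mice 21, 26 and 27. Irf4, a transcription factor of lymphocytes, read 8.4, 8.45 and 8.43 in control mice and 7.27, 7.17 and 7.18 in PAT mice (-1.22 ± 0.25, adjusted p = 0.00854). Prdm1, the transcription factor that establishes plasma cells, fell by 0.72 ± 0.21 and the adaptor Blnk by 0.46 ± 0.14 (adjusted p = 0.0316 and 0.0429), and both calls ended after median centring (adjusted p = 0.396 and 0.678). Without 1 mouse, the call of Prdm1 ended for mice 2, 7, 8, 21 or 26 (adjusted p up to 0.088) and that of Blnk for mice 2, 7, 26 or 27 (up to 0.147). Xbp1, needed for antibody secretion and also active in epithelium, differed by 0.09 ± 0.18 (adjusted p = 0.696).

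Among 19 lineage factors of T helper and regulatory cells, 3 rose and 3 fell (31.6%, against 26.3% of all genes), with a median of -0.29 that turned to 0.06 with median centring and 0.02 with quantile normalization. Maf rose by 0.80 ± 0.15 (adjusted p = 0.00545) and Tbx21, the factor of type 1 responses, fell from 8.47, 8.64 and 8.73 to 7.89, 7.77 and 8.13 (-0.68 ± 0.14, adjusted p = 0.00833, and 0.348 after median centring). Gata3, of type 2 responses, and Foxp3, of regulatory T cells, differed by 0.20 ± 0.14 and -0.38 ± 0.38 (adjusted p = 0.283 and 0.448). Of 20 co-stimulatory and co-inhibitory genes 25% passed: Cd274, Tigit and Ctla4 fell and Btnl1 and Btnl2 rose, and the calls of Tigit, Ctla4 and Btnl2 ended without mouse 2, 7 or 27 (adjusted p up to 0.0888, 0.136 and 0.128). Median centring ended those of Tigit and Ctla4 (adjusted p = 0.283 and 0.054), and quantile normalization that of Tigit (adjusted p = 0.515). In that list 1 gene fell without mouse 2, 7 or 27, and 9 fell without mouse 21. The T helper list had 1 gene higher and 1 lower without mouse 2, 7, 26 or 27. Of 19 macrophage and dendritic cell genes 3 passed (15.8%), Clec4a4 (0.59 ± 0.17, adjusted p = 0.0339), Itgam (-0.90 ± 0.28, adjusted p = 0.044) and Lilrb4 (-0.48 ± 0.15, adjusted p = 0.044). Each of these calls ended when mouse 2 was left out and for 3 or more of the other SPF mice (adjusted p up to 0.105, 0.137 and 0.11), and median centring and quantile normalization ended those of Itgam (adjusted p = 0.316 and 0.105) and Lilrb4 (adjusted p = 0.673 and 0.516). Itgax, the integrin CD11c, differed by -0.09 ± 0.17 (adjusted p = 0.709), Cdh5, the cadherin of endothelium, by 0.42 ± 0.17 (adjusted p = 0.091), and Ptprc, the pan-leukocyte marker CD45, by -1.01 ± 0.49 (adjusted p = 0.146).

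Of 30 adhesion and endothelial genes 6 rose and 2 fell (26.7%, at the share of all genes), with a median of 0.20, and 2 or 3 rose without mouse 2, 7, 26 or 27. Itga2b, the platelet integrin chain CD41, rose from mean normalized counts of 11.5 to 28.1 (1.32 ± 0.27, adjusted p = 0.00806), and Spn, the sialoglycoprotein CD43 of leukocytes, fell by 0.98 ± 0.30 (adjusted p = 0.0382, and up to 0.136 without mouse 2, 7, 26 or 27, and 0.0618 after median centring). Of 32 genes of the TNF superfamily, its receptors and the TRAF adaptors, 5 rose and 1 fell (18.8%, against 26.3% of all genes). In this list 23 genes lay below 0 and the median was -0.37. The rises held Traf2, Traf3 and Traf4 (0.41 ± 0.13, 0.41 ± 0.11 and 0.62 ± 0.15, adjusted p = 0.047, 0.0217 and 0.0142). Leaving out mouse 2, 7 or 27 left 1 or 2 rises in this list, and leaving out mouse 21 gave 8 rises and 7 falls. All of these TRAF calls ended without mouse 2 (adjusted p up to 0.165, 0.0842 and 0.0512 over the mice left out), those of Traf2 and Traf3 also without mouse 7 or 27 and that of Traf2 without mouse 8 and after median centring (adjusted p = 0.0514). Of 12 genes of cell death and cell cycle arrest 3 rose (25%), with Bcl2, which protects cells from apoptosis, and Fadd, the adaptor of death receptors, among them (0.64 ± 0.17 and 0.55 ± 0.16, adjusted p = 0.0217 and 0.0358). In this list at most 1 gene rose without mouse 2, 7, 26 or 27, 5 without mouse 21 and 6 without mouse 8. None of its genes passed when the 6 SPF mice were fitted alone or with the methods' Tukey HSD and Benjamini-Hochberg adjustment. Of 9 Fc receptors 1 passed (11.1%, against 26.3% of all genes), the inhibitory receptor Fcgr2b (-0.60 ± 0.18, adjusted p = 0.0369, and up to 0.137 without mouse 2, 7, 26 or 27, and 0.284 after median centring). Atg16l1, which was the autophagy list by itself, differed by 0.38 ± 0.14 and did not pass (adjusted p = 0.0607).

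**Figure D4:**
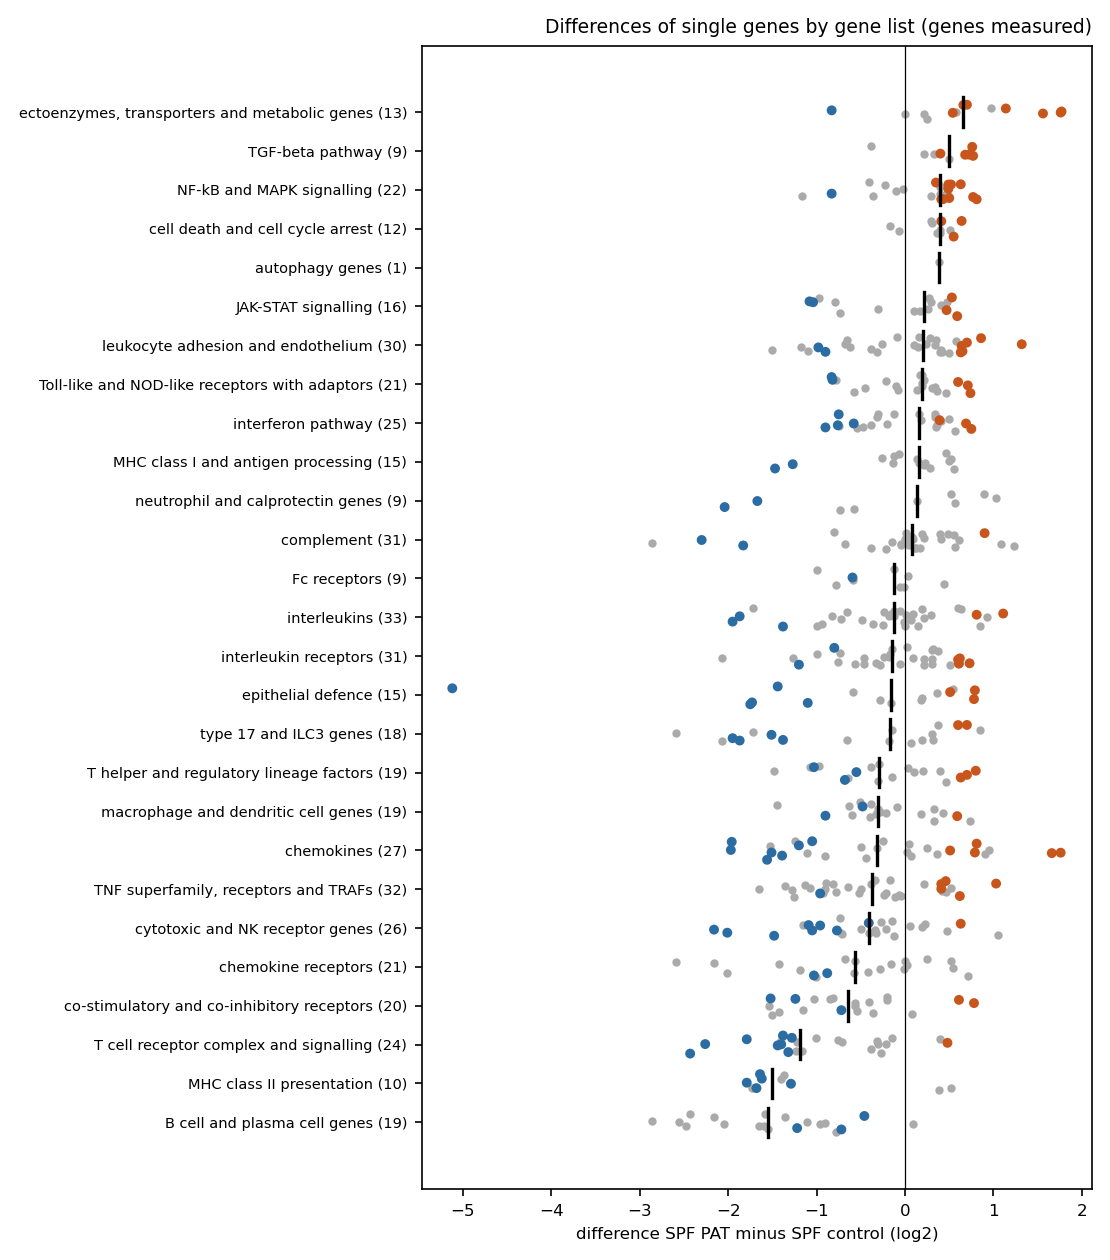
Difference SPF PAT minus SPF control of each gene (x axis, log2) in 27 gene lists (y axis, with the number of genes measured, ordered by the list median, black bar), in orange where higher, blue where lower and gray where the test was not passed. Ectoenzymes, TGF-beta and NF-kB genes lie mostly above 0 and B cell, MHC class II and T cell receptor genes mostly below it.

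The same contrast in germ-free mice was set beside these values. The test of the difference between the PAT effect in SPF mice and that in GF mice was passed by 95 of 556 genes (17.1%), and by 16 of the 20 genes with the largest rise or fall, which were chosen for their SPF difference and share it with this test. Differences of both GF groups from SPF control share the SPF control mice with the SPF contrast, so only levels are given. Abcb1a averaged 15.05 in GF control and 15.11 in GF PAT mice, above the SPF PAT mice. Gzmb averaged 4.90 and 5.26, below the SPF PAT mice, and GF control and GF PAT mice overlapped in both genes. Fkbp5 averaged 9.68 in GF control and 8.82 in GF PAT mice, which did not overlap, so its GF difference ran against its SPF difference.

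**Figure D5:**
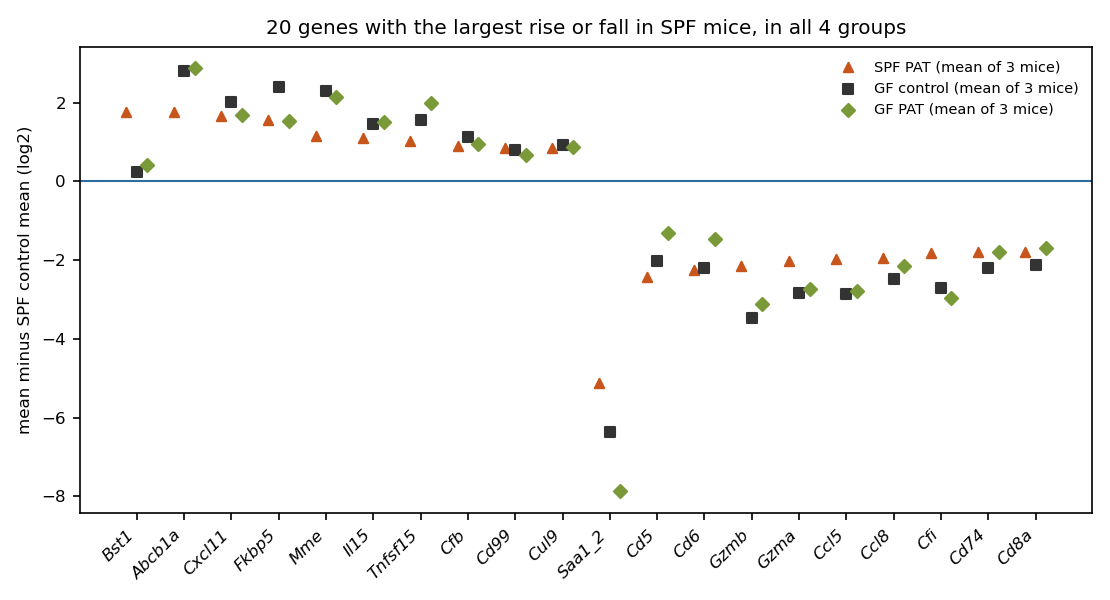
Group mean minus the SPF control mean (y axis, log2) for the 20 genes with the largest rise or fall in SPF mice (x axis), as triangles for SPF PAT, squares for GF control and diamonds for GF PAT, with 3 mice per mean and a blue line for SPF control. Saa1_2 lies lowest in all 3 groups, and the 2 GF means of Bst1 lie closer to the SPF control line than its SPF PAT mean. The genes were chosen for their SPF difference, and the SPF control mean enters every point.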

How the data were processed

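Ileal RNA of 12 male mice, 3 per group, was hybridized to the nCounter GX mouse immunology panel of NanoString. The authors normalized the probe counts with DESeq2, and the deposited table holds the results on a log2 scale for each mouse, without a genome build. The 28 entries for 14 reference genes, 8 negative and 6 positive control probes held no value, so a background limit was not used here. Dividing out 1 size factor per mouse gave whole counts within 0.01, and a count of 0 stands as 0 on the log2 scale. The median SD within a group was 0.255 in SPF control and 0.296 in SPF PAT mice, and the mean over the 6 SPF mice was below 20 normalized counts for 102 genes, where counting error is largest. RNA extraction is given as TRIzol with an RNeasy cleanup in the labels and as another kit in the study's methods.

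Differences were tested with limma 3.58.1 in R 4.3.3 (lmFit, eBayes, statmod 1.5.0), with 1 mean per group over all 12 mice, no covariate and no filter, and p-values were adjusted over 556 genes by the Benjamini-Hochberg method at 0.05. Named genes were the 10 largest rises and 10 largest falls among genes past the threshold, without overlap and with a mean normalized count of at least 20, the 4 smallest adjusted p in each of 27 gene lists, and a list of marker genes. The genes, lists and tests were chosen with earlier results of these data known. Ifngr1, Ifngr2, Cxcl9, H2-Eb1, H2-K1, H2-Ea-ps, Ctss, Saa3, Dpp4, Lck, Fcer1a and the remaining members named without a value were chosen after their values were seen. Some genes of the rule are not reported here. Of the 556 symbols, 537 were current symbols in RefSeq for GRCm38.p6, 16 were older names and 3 had no match.

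Alternatives were the methods' Tukey HSD with Benjamini-Hochberg or Benjamini-Yekutieli adjustment, an intensity trend, robust estimation, the 6 SPF mice alone, median centring, a filter at a mean of 20 normalized counts, quantile normalization, scaling to the total, log2 of the normalized count plus 1 or plus 10, limma's voom on the recovered counts, an absolute difference of at least 1, and leaving out each mouse. Chosen after seeing the data were the B cell and follicle marker mean as a covariate and leaving out mice 8 and 21 together. These mice were chosen because their B cell and follicle markers went with the other group.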

Additional observations from a re-analysis of the deposited data

Results flagged for a closer look

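In 16 of the 20 genes with the largest rise or fall, SPF and GF mice differed in the effect of PAT by the test of that difference (limma, adjusted over 556 genes). The values that follow are the SPF effect minus the GF effect on the log2 scale. The genes were chosen for their SPF difference, which enters this test. Among the genes that rose in SPF mice it was 1.6 for Bst1, 1.70 for Abcb1a, 1.99 for Cxcl11, 2.42 for Fkbp5, 1.31 for Mme, 1.07 for Il15, 1.09 for Cfb, 1.0 for Cd99 and 0.91 for Cul9. Among those that fell it was -3.62 for Saa1_2, -2.52 for Gzmb, -2.11 for Gzma, -2.05 for Ccl5, -2.27 for Ccl8, -2.23 for Cd74 and -2.22 for Cd8a. The adjusted p was lowest for Fkbp5 (0.000372) and highest for Gzma (0.0238). Tnfsf15, Cd5, Cd6 and Cfi did not pass (adjusted p = 0.132, 0.055, 0.0611 and 0.105).

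The GF mice were not alike in all of these genes. GF PAT minus GF control was -0.87 for Fkbp5 and -1.50 for Saa1_2, without overlap between the GF groups, while the other 14 of the 16 genes overlapped in GF mice, with differences of -0.33 to 0.44. Fkbp5 passed in all 25 alternatives. Gzma, Mme and Bst1 passed in 18, 19 and 20 of 25, and the call of each ended without SPF PAT mouse 27, that of Bst1 and Gzma also without SPF control mouse 2, and that of Mme and Gzma with the B cell and follicle covariate. Single GF mice whose absence ended a call were mice 41 and 38 for all 3 genes, mouse 42 for Mme and mouse 39 for Gzma.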

How the results depend on the processing

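The 146 genes past the threshold (78 higher, 68 lower) became 55 (30 higher, 25 lower) with the methods' Tukey HSD and Benjamini-Hochberg adjustment, and 6 (4 higher, 2 lower) with Benjamini-Yekutieli. They became 76 (31 higher, 45 lower) when the 6 SPF mice were fitted alone, and 55 (9 higher, 46 lower) at an absolute difference of at least 1. Of 92 named genes that passed, 48 passed with that Tukey HSD and Benjamini-Hochberg adjustment, and S100a8, S100a9, Fasl, Il22 and Cfi were among those that did not. Btnl1, Lif, Itga2b, Irf4, Nox1 and H2-DMa did not pass with it either. With the 6 SPF mice alone 59 of the 92 passed, and Btnl1, Lif and Itga2b were among those that did not. Median centring left 30 lower genes and scaling to the total gave 135 higher genes. Without mice 8 and 21 the counts were 306, 154 higher and 152 lower. Leaving out 1 mouse gave 64 to 232 genes, 31 to 117 higher and 33 to 115 lower. The lowest total was without SPF control mouse 2, followed by 73 without PAT mouse 27, 75 without control mouse 7 and 89 without PAT mouse 26, and the highest was without PAT mouse 21. The fits without 1 mouse have fewer samples, and the cause of the other shifts was not tested. Each of the 146 genes that an alternative tested kept its direction, except under quantile normalization, in which 145 did and Klrc1 turned from -0.41 to 0.22. No paired analysis was possible because the labels do not match mice across groups. Genes under a mean normalized count of 20 made up 6 of the 146, and a difference in such genes was detectable only where it was large.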

Other observations

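Over all 556 genes, 14% were higher and 12.2% lower in SPF PAT mice by the limma test. Of the 68 genes in none of the 27 lists, 14 rose and 0 fell. Among them was Kit, the stem cell factor receptor of mast cells and of the pacemaker cells of the gut wall, which read 7.82, 7.93 and 8.07 in SPF control mice 2, 7 and 8 and 8.48, 8.70 and 8.74 in SPF PAT mice 21, 26 and 27 (0.70 ± 0.15, adjusted p = 0.0102). The mice did not overlap. Igf2r, a sorting receptor for lysosomal enzymes, rose by 0.74 ± 0.15 (adjusted p = 0.00833). Pdgfrb, a growth factor receptor of pericytes and fibroblasts, rose by 0.76 ± 0.20 (adjusted p = 0.0224), but its call ended without mouse 2, 7, 26 or 27 (adjusted p up to 0.0918). Fcer1a, the other mast cell marker measured, differed by -0.78 ± 0.59 and did not pass (adjusted p = 0.322). These genes were chosen after their values were seen.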
